A study of Mus musculus with 8 samples.

Results

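The part of platelet-derived growth factor (PDGF) signalling followed here is the RNA of 6 genes, the receptor genes Pdgfra and Pdgfrb and the ligand genes Pdgfa, Pdgfb, Pdgfc and Pdgfd. They were taken from the 32108 listed genes by their Ensembl mouse identifiers, and all 6 were among the 15358 genes tested. RNA-seq was done on 4F2A mouse embryonic fibroblasts (MEFs), primary connective tissue cells, from homozygous embryos of 13.5 dpc labelled male. The 4F2A strain carries Oct4, Sox2, Klf4 and c-Myc as one doxycycline-inducible cassette, a design used to reprogram fibroblasts into induced pluripotent stem cells. All cells were given 2 µg/mL doxycycline from day 0, in KnockOut DMEM with 15% serum replacement and 1000 U/mL LIF. The groups were the harvest days D2, D4, D6 and D8, with 2 libraries each and 8 in all. Every title marks its sample as a control. No day 0 and no doxycycline-free sample is analysed here, so each change is one between days of induction. Whether the replicates are separate cultures or embryos is not in the labels, and the p-values therefore reflect spread that may be technical.

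The PDGFs are dimeric growth factors, and their receptors are tyrosine kinases of the cell surface that pair up and phosphorylate each other when a ligand binds. PDGF-A and PDGF-C act on PDGF receptor alpha, PDGF-D on receptor beta, and PDGF-B on both. PDGF-A and PDGF-B are cut to their active form inside the cell by furin-like convertases, whereas PDGF-C and PDGF-D are secreted latent and lose an inhibitory CUB domain to proteases outside it. In the embryo receptor alpha marks many mesenchymal cells and receptor beta marks pericytes, smooth muscle and fibroblasts. PDGFs are classical mitogens and migration signals of cultured fibroblasts, and loss of fibroblast identity is an early event of reprogramming. The title of the series names stages of reprogramming as its subject.

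The libraries held 19409936 to 20161021 counted reads each, and 3 reads, the limit that a count of 0 allows, equal 0.149 to 0.155 CPM, reads scaled to a library total of 1000000. This limit covers counting error only. CPM is not scaled by gene length, so levels of different genes are compared only after division by length. Xist, the RNA of the inactive X chromosome, lay at 702 to 1238 CPM, while no value of the Y-linked genes Uty, Ddx3y, Eif2s3y and Kdm5d passed 0.333 CPM, so all 8 libraries went against the label of male embryos. The reprogramming factor gene Pou5f1 (Oct4) had a mean of 113 CPM in D2 and 281 CPM in D8. All 8 libraries share the label of induction, so this is a change within induction and does not test that label. Fibroblast markers were abundant on every day, with summed levels of 37382 to 53082 CPM over 19 genes. Because the RNA is from whole cultures, fewer cells of a type and less RNA per cell cannot be told apart.

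The promoter windows of Pdgfra, Pdgfc and Pdgfd are shown first, because these genes set the largest rise and the largest fall of the family and the smaller fall of another latent ligand. Each is the 250 bases before the RefSeq transcript start in build GRCm38.p6, written 5′ to 3′ along the gene, and a motif match is in capitals.
Pdgfra promoter, chr5:75152001-75152250, plus strand: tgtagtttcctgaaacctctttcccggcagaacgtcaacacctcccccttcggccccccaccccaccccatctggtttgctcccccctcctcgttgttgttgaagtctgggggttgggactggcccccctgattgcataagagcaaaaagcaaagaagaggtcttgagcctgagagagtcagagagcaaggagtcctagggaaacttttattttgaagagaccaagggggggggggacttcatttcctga
Pdgfc promoter, chr3:81036166-81036415, plus strand: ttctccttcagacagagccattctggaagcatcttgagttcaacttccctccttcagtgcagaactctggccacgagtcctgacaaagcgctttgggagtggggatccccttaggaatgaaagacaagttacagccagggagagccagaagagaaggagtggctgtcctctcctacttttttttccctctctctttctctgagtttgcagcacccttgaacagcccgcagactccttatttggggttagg
Pdgfd promoter, chr9:6168236-6168485, plus strand: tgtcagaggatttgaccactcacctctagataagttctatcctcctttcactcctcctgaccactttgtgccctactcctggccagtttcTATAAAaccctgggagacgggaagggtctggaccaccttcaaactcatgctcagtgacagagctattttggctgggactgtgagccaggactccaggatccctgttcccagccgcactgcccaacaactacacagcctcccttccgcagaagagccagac
None of the windows overlapped an annotated exon. Their GC content was 54.4%, 50.8% and 53.6%, against a median of 52.4% over the 32851 windows of the table. Both strands were searched for 7 motifs, the EGR motif GCGNGGGCG, the GC box GGGCGG, the AP-1 motif TGANTCA, the E-box CACGTG, the octamer ATGCAAAT, the CCAAT box CCAAT and the TATA box TATAAA. The EGR motif and the GC box can overlap. In the same order, these letters were held by 4.70%, 32.7%, 6.75%, 6.02%, 1.60%, 33.8% and 12.4% of all windows. The windows of Pdgfra and Pdgfc held none of them, and the window of Pdgfd held TATAAA, which begins 160 bases before the start. A match is a run of letters and not a measured site.

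Receptor alpha RNA rose early and stayed up, while receptor beta RNA peaked on D4 and then fell below its first level. Pdgfra (ENSMUSG00000029231, mm10 chromosome 5, 75152292 to 75198215, plus strand) encodes receptor alpha. Its level was 10.4 and 11.6 CPM in the D2 libraries, 67.2 and 63.2 in D4, 71.6 and 64.5 in D6, and 79.0 and 90.8 in D8. The D2 libraries lay far under all others, those of D4 and D6 overlapped, and both D8 libraries were above every earlier one. The D2 level rested on 210.5 and 233.5 reads, where reads shared between genes count in part, and the D8 level on 1534 and 1772 reads.

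From D2 to D4 Pdgfra rose 5.91-fold, from 11 ± 0.840 to 65.2 ± 2.86 CPM (SD, n = 2). The difference of log2(CPM + 1) was 2.46 ± 0.08 (SE), with an adjusted p of 3.6e-11 in limma's test, at percentile 99.2 of the changes of all tested genes. The step from D4 to D6 was 0.06 ± 0.08 (adjusted p = 0.586), which was not larger than the spread between libraries. From D6 to D8 the level went from 68.1 ± 5.0 to 84.9 ± 8.33 CPM, a rise of 0.31 (adjusted p = 0.0308). That last call was lost without D6 replicate 1, D6 replicate 2 or D8 replicate 2 (adjusted p = 0.0501, 0.183 and 0.204). Over the whole span Pdgfra rose 7.70-fold, by 2.83 ± 0.08 on the log2 scale (adjusted p = 4.1e-12, limma).

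Pdgfrb (ENSMUSG00000024620, chromosome 18, 61045150 to 61085061, plus strand) encodes receptor beta, the receptor through which PDGF-B recruits pericytes to vessels. Its level was 150.9 and 153 CPM in D2, 187 and 197 in D4, 128 and 129 in D6, and 125 and 131 in D8. D4 stood above all other days and D2 above D6 and D8, and the libraries of D6 and D8 overlapped. Pdgfrb rose 1.26-fold from D2 to D4, by 0.33 ± 0.05 on the log2 scale (adjusted p = 5.1e-05, limma). From D4 to D6 it fell by 0.57 ± 0.05 (adjusted p = 2.0e-06), to 0.670 times its D4 level and at percentile 2.04 of all tested genes. D6 and D8 means were 128 ± 0.981 and 128 ± 4.27 CPM (adjusted p = 0.933), and D8 was at 0.839 times D2 (a fall of 0.25, adjusted p = 4.0e-04).

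**Figure D1:**
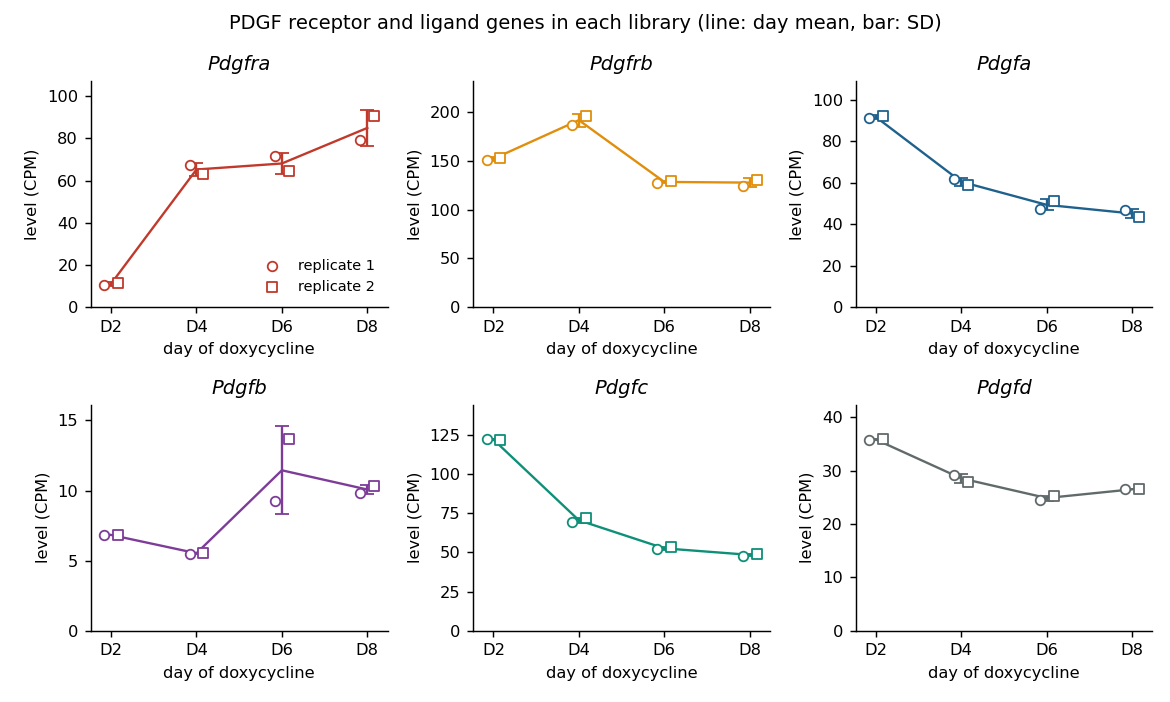
Levels in CPM (vertical axes, each from 0) of the 6 PDGF genes on each day of doxycycline (horizontal axes); circles and squares are replicates 1 and 2, lines join day means and bars are SD over 2 libraries. Pdgfra rises from 11 to 84.9 CPM, Pdgfrb peaks at 192 CPM on D4, Pdgfa, Pdgfc and Pdgfd fall from D2 to D6, and the D6 libraries of Pdgfb stand apart at 9.23 and 13.7 CPM.

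Set per kilobase of exon, receptor beta led receptor alpha on every day, by a margin that narrowed. Pdgfra per kilobase was 0.038 and 0.041 times Pdgfrb in the D2 libraries, 0.196 and 0.176 in D4, 0.306 and 0.273 in D6, and 0.346 and 0.380 in D8. The days did not overlap, and the order D2, D4, D6, D8 held for every library. Put the other way, Pdgfrb was 25.3 ± 1.63 times Pdgfra in D2 and 2.76 ± 0.179 times in D8 (SD, n = 2). The log2 ratio rose by 3.20 from D2 to D8, and days differed in an exact permutation test over all assignments of the libraries (p = 0.00952, the smallest it can give). A ratio within a library does not depend on how libraries were scaled. It shows unequal change and does not show which gene moved. The size of the ratio depends on the lengths used, and its change between days does not.

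**Figure D2:**
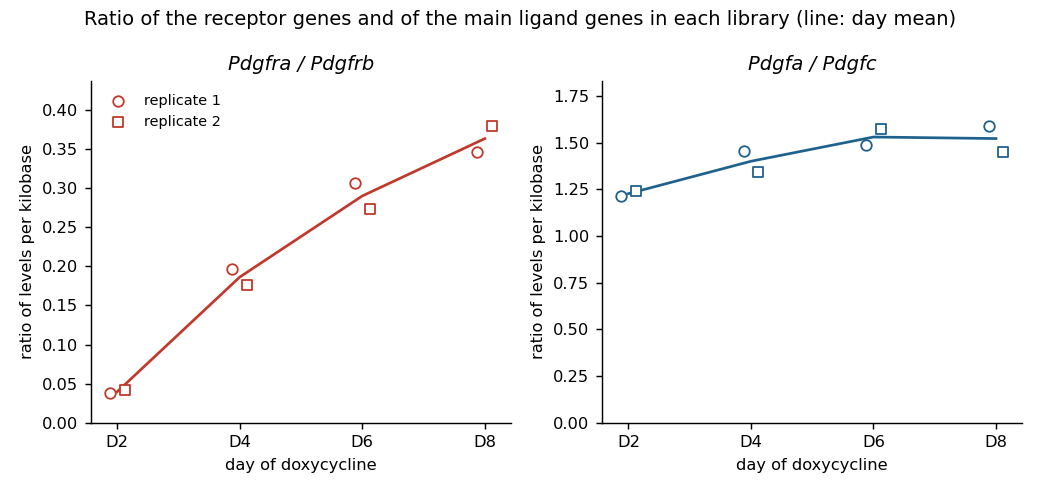
Ratio of levels per kilobase in each library (vertical axes, from 0) by day of doxycycline, for Pdgfra over Pdgfrb (left) and Pdgfa over Pdgfc (right); circles and squares are replicates 1 and 2 and lines join day means. The receptor ratio climbs from 0.0396 to 0.363 with no overlap between days, while the ligand ratio moves from 1.23 to 1.52 and its D8 libraries overlap those of D4 and of D6.

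Of the 4 ligand genes Pdgfa, Pdgfc and Pdgfd fell from D2 to D8 and Pdgfb rose, and Pdgfa and Pdgfc, both coding for ligands of receptor alpha, fell most. Pdgfa (ENSMUSG00000025856, chromosome 5, 138976014 to 138997370, minus strand) encodes the A chain, a mitogen of mesenchymal progenitors. Its level was 91.0 and 92.4 CPM in D2, 61.9 and 59.0 in D4, 47.5 and 51.2 in D6, and 46.7 and 43.6 in D8. The days came in falling order with no overlap between them. Pdgfa fell by 0.59 ± 0.06 on the log2 scale from D2 to D4 (adjusted p = 1.6e-06, limma) and by 0.29 from D4 to D6 (adjusted p = 0.00209). The difference from D6 to D8 was -0.12 (adjusted p = 0.206), and D8 stood at 0.492 times D2 (a fall of 1.01 on the log2 scale, adjusted p = 5.2e-09).

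Pdgfc (ENSMUSG00000028019, chromosome 3, 81036416 to 81214040, plus strand) encodes PDGF-C, a latent ligand that is known for its role in palate development. Its level was 122 and 122 CPM in the D2 libraries, 69.4 and 71.7 in D4, 52.0 and 53.2 in D6, and 47.9 and 49.0 in D8. Again no days overlapped, and the replicates of each lay close together. The fall from D2 to D4 was 0.78 ± 0.05 on the log2 scale (adjusted p = 2.3e-08, limma), and the fall from D4 to D6 was 0.42 (adjusted p = 4.0e-05). Over the span Pdgfc fell by 1.31 ± 0.05 (adjusted p = 7.1e-11), to 0.397 times its D2 level and at percentile 2.49 of all tested genes. The Pdgfa to Pdgfc ratio per kilobase was 1.22 and 1.24 in D2 and 1.59 and 1.45 in D8. Its log2 difference from D2 to D8 was 0.31. Over all days together the ratio did not pass the exact permutation test (p = 0.0667), and the D2 to D8 difference alone was not tested.

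Pdgfd (ENSMUSG00000032006, chromosome 9, 6168584 to 6378850, plus strand) encodes PDGF-D, a latent ligand of receptor beta. Its level was 35.8 and 35.9 CPM in D2, 29.2 and 28 in D4, 24.6 and 25.2 in D6, and 26.5 in each D8 library. D2 was highest and D6 lowest, with no overlap between days. The D8 level was 0.740 times that of D2 (a fall of 0.42 ± 0.06 on the log2 scale, adjusted p = 4.8e-05, limma). Most of this was the D2 to D4 step, a fall of 0.32 (adjusted p = 6.8e-04). The D4 to D6 fall of 0.19 passed the test with all libraries (adjusted p = 0.0301) but not without D2 replicate 1, D2 replicate 2, D4 replicate 1, D6 replicate 1 or D6 replicate 2, where the adjusted p was 0.0514 to 0.135.

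Pdgfb (ENSMUSG00000000489, chromosome 15, 79995874 to 80014977, minus strand) encodes the B chain, which endothelial cells and platelets supply in the body, and it was the lowest ligand. Its level was 6.84 and 6.82 CPM in D2, 5.49 and 5.57 in D4, 9.23 and 13.7 in D6, and 9.84 and 10.3 in D8. All libraries of D6 and D8 lay above those of D2 and D4, and the D6 pair spanned the D8 pair. The D6 libraries held 180 and 267 reads of the gene, an SD of 3.13 CPM where counting alone gives 0.765 CPM. The difference from D2 to D4 was -0.26 ± 0.14 (adjusted p = 0.114). From D4 to D6 Pdgfb rose 2.07-fold, by 0.91 ± 0.14 on the log2 scale (adjusted p = 2.4e-04, limma), and D8 was 1.47-fold above D2 (0.50, adjusted p = 0.00554). Under quantile normalization this last difference was 0.093 (adjusted p = 0.573), and with no filter on low values its adjusted p was 0.0502.

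Counted together, 5 of the 6 genes were called from D2 to D4 (2 higher, 3 lower) at an adjusted p under 0.05, where 62.5% of all tested genes were called, 40.9% higher and 21.7% lower. From D4 to D6 again 5 were called (1 higher, 4 lower), against 37.7% of all tested genes, 25.2% higher and 12.6% lower. From D6 to D8 the call of Pdgfra was the single one, against 9.11% of all tested genes, 4.72% higher and 4.39% lower. Over D2 to D8 all 6 were called (2 higher, 4 lower), against 70.4%, 47.3% higher and 23.1% lower. From D4 to D8 the count was 5 (2 higher, 3 lower), against 49% of all tested genes, 30.7% higher and 18.3% lower. In limma's F test over the days all 6 were called, against 80.4% of tested genes. The split of all called genes depended on the scaling. From D2 to D4 65.3% of them were higher, and 52.6% and 47.1% after median-of-ratios scaling and quantile normalization. In the same order these shares were 66.7%, 46.9% and 47.7% from D4 to D6, 67.2%, 50.9% and 45.1% from D2 to D8, and 62.6%, 47.3% and 46.5% from D4 to D8. With most genes changing in this series, the number of PDGF genes called is not a result about the family, and what it shows is the directions and sizes above.

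The median change of the 6 genes was -0.29 on the log2 scale from D2 to D4 and -0.34 from D2 to D8, where the median of all tested genes was 0.11 and 0.17. Relative to that median Pdgfra was higher by 2.67 in D8 than in D2, and Pdgfb by 0.33. The falls from D2 to D8 were -1.48 for Pdgfc, -1.17 for Pdgfa, -0.59 for Pdgfd and -0.42 for Pdgfrb on the same relative scale. Median-of-ratios scaling, which takes that shift out, and quantile normalization kept the direction of every D2 to D8 change of the 6 genes.

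**Figure D3:**
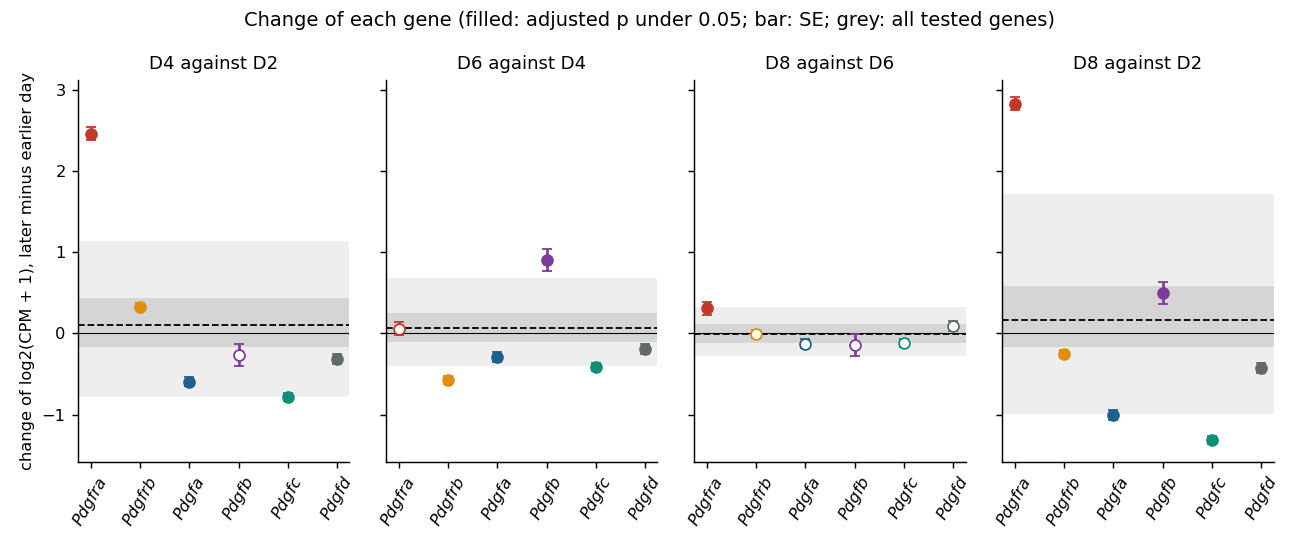
Change of log2(CPM + 1), later minus earlier day (vertical axis), for each PDGF gene in 4 comparisons of days; points are limma estimates with SE bars, filled where the adjusted p was under 0.05, and grey bands hold the middle 50% and 90% of all tested genes around their dashed median. Pdgfra stands above the bands from D2 to D4 and from D2 to D8, and just above them from D6 to D8, Pdgfc lies under them in every panel but D8 against D6, Pdgfa from D2 to D8, and Pdgfrb from D4 to D6, where Pdgfb lies above.

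Levels per kilobase put the genes in a changing order. In D2 the order was Pdgfa at 29.4 ± 0.324 CPM per kilobase, Pdgfrb at 27.8 ± 0.321, Pdgfc at 24, Pdgfd at 11.4, Pdgfb at 1.64 and Pdgfra, the lowest, at 1.10 ± 0.0838. In D8 it was Pdgfrb at 23.3, Pdgfa at 14.5, Pdgfc at 9.52, Pdgfra at 8.47 ± 0.831, Pdgfd at 8.41 and Pdgfb at 2.42. Pdgfra and Pdgfd in D8 were the neighbours whose libraries overlapped, and all other neighbours were apart on every day. Pdgfra moved from percentile 20.1 of tested genes per kilobase in D2 to 60.4 in D8, while Pdgfrb went from 87.4 to 84.6. The lengths were all annotated exon bases of each gene. With the longest coding transcript instead, Pdgfc stood above Pdgfrb in D2, Pdgfa above Pdgfrb in D6 (23.9 against 23.7 CPM per kilobase), and Pdgfra above Pdgfd in D4, D6 and D8 (12.4 against 8.47 CPM per kilobase in D8).

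Among ligand RNA per kilobase, Pdgfa made 44.3% in D2 and 41.6% in D8, Pdgfc 36.1% and 27.3%, Pdgfd 17.1% and 24.1%, and Pdgfb 2.47% and 6.95%. The share of Pdgfc was lower, and those of Pdgfb and Pdgfd higher, in both libraries of D8 than in both of D2. These are shares of RNA and not of protein. They rest on all annotated exon bases, and their size depends on the lengths used.

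The conversion of the PDGFs depends on proteases, furin-like convertases for the A and B chains and proteases outside the cell for the latent ligands. Genes of both kinds were counted together, and they moved in both directions. Of 7 protease genes all were tested, with 3 higher and 3 lower in D8 than in D2 and a median change of -0.07 on the log2 scale, where 47.3% and 23.1% of all tested genes were higher and lower. Plau, the urokinase that can activate PDGF-D, fell from 109 ± 9.28 CPM in D2 to 25.6 ± 0.0733 in D4 and 14 ± 0.713 in D8, by 2.87 over the span (adjusted p = 5.5e-12, limma). Plat, the tissue plasminogen activator that cuts PDGF-C, stood at 115 ± 3.60 CPM in D2, 105 ± 0.973 in D4 and 50.9 ± 2.43 in D8 and fell by 1.17 (adjusted p = 4.5e-10). St14, the membrane protease matriptase that can also process PDGF-D, rose from 2.98 ± 0.147 to 19.4 ± 2.11 CPM (2.35, adjusted p = 1.1e-09). Furin, the convertase of the A and B chains, fell from 132 to 91.8 CPM, and Pcsk5, a related convertase, rose from 9.32 to 20.3 CPM.

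Extracellular partners of the PDGFs counted 3 higher and 0 lower of 5 in D4 against D2 (median 0.43), where 40.9% and 21.7% of all tested genes were higher and lower. In D8 against D2 they counted 1 higher and 2 lower (median -0.05), against 47.3% and 23.1% of all tested genes. A2m, which encodes a plasma protein that binds growth factors and proteases, rose from 1.32 ± 0.531 to 17.5 ± 3.41 CPM over the span (3.0, adjusted p = 1.9e-08, limma). Nrp1, a coreceptor, was at 90.9, 124, 106 and 87.9 CPM on the days in turn, highest on D4 like Pdgfrb. Sparc, a matrix protein that binds PDGF-B, fell from 5032 to 4247 CPM (-0.25, adjusted p = 0.00774).

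Receptor signalling genes were split. Of 35 transducer genes, all tested, 15 were higher and 14 lower in D8 than in D2, with a median of -0.04. In D4 against D2, 14 were higher and 16 lower. Of all tested genes 47.3% were higher and 23.1% lower in D8 against D2, and 40.9% and 21.7% in D4 against D2. On the median-of-ratios scale the D8 split of the transducers was 10 higher and 19 lower. Pik3r1, the p85 subunit that docks PI 3-kinase on the receptors, rose from 50.1 ± 0.585 to 148 ± 9.45 CPM (1.55, adjusted p = 3.3e-11, limma). Nck1, an adaptor of actin remodelling, rose from 26.5 to 58.8 CPM, and Src, a kinase the receptors recruit, fell from 103 ± 2.65 to 47.9 ± 1.3 CPM (-1.09, adjusted p = 1.8e-09).

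Negative regulators counted 6 higher and 2 lower of 11 in D4 against D2 (median 0.18), and 4 higher and 3 lower in D8 against D2 (median -0.03). Of all tested genes 40.9% were higher and 21.7% lower in D4 against D2 (median 0.11). In D8 against D2 these shares were 47.3% and 23.1% (median 0.17). On the median-of-ratios scale the D4 split of the regulators was 3 higher and 3 lower and their D8 split turned to 3 higher and 6 lower. Quantile normalization gave 4 and 3 in D4. Ptprj, a phosphatase that removes receptor phosphates, rose from 20.5 to 56.7 CPM over the span (1.42, adjusted p = 7.8e-10, limma). Lrig1, a membrane protein that lowers the level of growth factor receptors, was at 49.6 CPM in D2, 106 in D4 and 87.6 in D8.

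Genes that PDGF is known to induce in resting fibroblasts peaked in D4, apart from Myc. From D2 to D4 all 6 of these genes were called higher, with a median of 2.00, where 40.9% of all tested genes were higher. From D4 to D6 the count was 1 higher and 5 lower, with a median of -0.93, against 25.2% and 12.6% of all tested genes. Cxcl1, a neutrophil chemokine, was at 4.85 CPM in D2, 83.0 in D4, 47.0 in D6 and 57.7 in D8. Ccl7, a monocyte chemokine, was at 80.7, 165.5, 86.0 and 102 CPM. Fos, an AP-1 subunit, was at 2.93, 129.8, 4.97 and 4.11 CPM. The gene that rose in both steps was Myc, which is also in the induced cassette. Serum, stress and many other signals induce these genes too, and the labels name no PDGF and no PDGF inhibitor, so whether PDGF signalling itself moved with them was not tested.

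**Figure D4:**
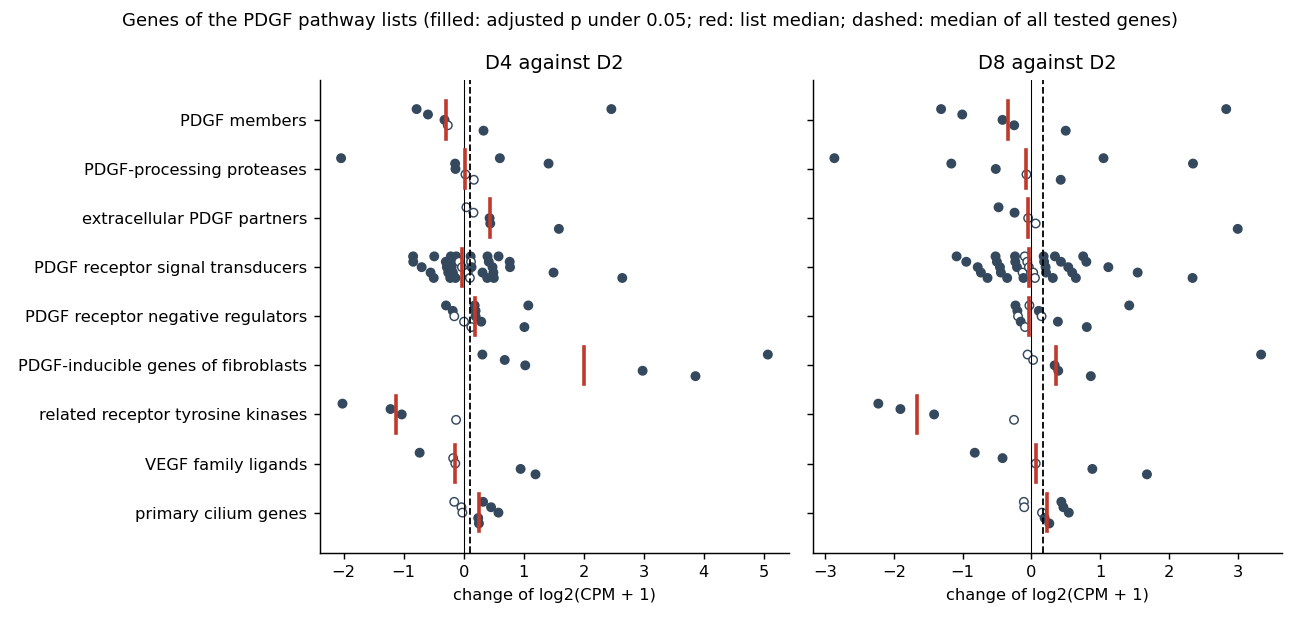
Change of log2(CPM + 1) (horizontal axes) of each tested gene of the PDGF pathway lists in D4 against D2 (left) and D8 against D2 (right); points are genes, filled where limma's adjusted p was under 0.05, red bars are list medians and dashed lines the median of all tested genes. The inducible genes lie to the right in D4, with a median of 2.00, the related receptor kinases lie to the left in both, and the transducers spread to both sides.

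The VEGF receptor genes, relatives of the PDGF receptors, fell while Pdgfra rose. Kit, Csf1r and Flt3 share the receptor class, and Flt1, Kdr and Flt4 are the receptors of the VEGFs, growth factors of the same fold. Of 4 tested relatives 0 were higher and 3 lower in D8 than in D2, with a median of -1.66. Of all tested genes 47.3% were higher and 23.1% lower. Flt4 fell from 36.7 to 7.04 CPM (-2.23), Flt1 from 69.0 to 17.8 CPM (-1.91) and Kdr from 4.32 to 1.00 CPM (-1.42, adjusted p = 2.6e-06, limma). Kit, which lies 376700 bases from Pdgfra on chromosome 5, was at 0.199 to 0.974 CPM and was not tested, and Kdr lies beyond it. Chic2, on the other side of Pdgfra, stayed between 21.1 and 26.0 CPM. Csf1r, 15536 bases from Pdgfrb, was at 7.54 to 11.2 CPM (-0.25 from D2 to D8, adjusted p = 0.0663).

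VEGF ligand genes counted 2 higher and 2 lower of 5 in D8 against D2, against 47.3% and 23.1% of all tested genes. Vegfd rose from 25.1 to 82.7 CPM (1.68) and Vegfa fell from 107 to 60.1 CPM (-0.83). Receptor alpha signals from the primary cilium of quiescent fibroblasts, and of 8 cilium genes 5 were higher and 0 lower in D8 than in D2, with a median of 0.23. This is near all tested genes, of which 47.3% were higher and 23.1% lower, with a median of 0.17. On the median-of-ratios scale that count was 3 higher and 2 lower. Ift172, a carrier of ciliary cargo, changed by 0.54.

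Some genes followed the PDGF genes closely over the 8 libraries. Likeness was the root mean square difference between log2(CPM + 1) profiles, each centred on its mean, among 13297 named genes. For Pdgfra the nearest was Scara3, a scavenger receptor-like protein, at 0.092 and with day means of 28.1, 149, 162 and 188 CPM, followed by the chemokine gene Cxcl15 (0.115) and Sod3, the extracellular superoxide dismutase (0.120). For Pdgfrb it was B4galt1, a galactosyltransferase of the Golgi, at 0.033 and with 198, 251, 173 and 164 CPM. Pdgfc was nearest to the Wnt receptor gene Fzd7, at 0.040 and with 131, 76.9, 57.7 and 54.7 CPM, and Pdgfa to the nuclear lamina gene Lmna (0.041). Pdgfd was nearest to the cap-binding factor Eif4e (0.025). Pdgfb had no neighbour as close, the nearest being Panct2 at 0.107, a gene of at most 1.43 CPM. All profiles share the same libraries and days, so likeness is a description.

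Markers of the cells that usually carry these receptors moved too. Fibroblast markers counted 13 higher and 4 lower of 18 tested in D4 against D2 (median 0.63), where 40.9% and 21.7% of all tested genes were higher and lower. In D8 against D2 they counted 10 higher and 5 lower (median 0.40), near the 47.3% and 23.1% of all tested genes. Lum, a matrix proteoglycan, rose from 11.3 to 844 CPM, Dcn, decorin, from 204 to 1781 CPM, and Pi16, a marker of stem-like fibroblasts, from 85.6 to 606 CPM. Fn1, fibronectin, fell from 12859 to 3540 CPM and was not chosen by the rule for named genes but for its level. Vim, S100a4, Thy1 and Twist2, named after their values were seen, were also lower in D8 (-0.88, -0.92, -0.46 and -0.69 on the log2 scale). The summed level of the list was 39976 to 40290 CPM in D2 and 37382 to 40911 in D8. Fibroblast genes thus moved in both directions while Pdgfra rose, and their part in that rise was not tested.

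Pericyte markers, which could travel with Pdgfrb, summed to 273 to 276 CPM in D2, 196 to 214 in D4, 144 to 151 in D6 and 115 to 121 in D8. Of 6 tested (of 10), 1 was higher and 5 were lower in D8 than in D2, against 47.3% and 23.1% of all tested genes. Cspg4, the NG2 proteoglycan, fell from 178 to 64.9 CPM and Mcam from 33.1 to 5.77 CPM, while Vtn and Higd1b, which mark brain pericytes, reached at most a mean of 0.0256 CPM. Notch3 was at 50.1, 81.3, 53.7 and 37.8 CPM, highest on D4 like Pdgfrb, and was named after its values were seen. In D4 against D2 it was the 1 pericyte marker called higher, and 4 of the 6 tested were lower (median -0.65). Of all tested genes 40.9% were higher and 21.7% lower in D4 against D2. Smooth muscle markers summed to 3207 to 3314 CPM in D2 and 751 to 770 in D4. Of 9 tested (of 10), 8 were lower and 1 was higher in D4, when Pdgfrb was higher, against 21.7% and 40.9% of all tested genes. Acta2, smooth muscle actin, was at 2394, 512, 579 and 690 CPM. Whether these cells account for any of the Pdgfrb RNA was not tested.

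Endothelial markers, whose cells supply PDGF-B, summed to 70.5 to 71.4 CPM in D2 and 166 to 168 in D8, and Tek alone made 65.3 and 162 CPM of the day means. No other gene of the list passed a day mean of 2.16 CPM, and Cdh5, Emcn and Cldn5 reached at most 0.448, 0.0992 and 0.206 CPM in any library. Of 5 tested (of 10), 3 were higher and 2 lower in D8 than in D2, and their part in the Pdgfb level was not tested. Of all tested genes 47.3% were higher and 23.1% lower in D8 against D2, which also applies to the marker counts that follow. Macrophage markers summed to 63.2 to 93.5 CPM over all libraries, with 2 of 9 higher and 3 lower in D8 than in D2. Median-of-ratios scaling gave 1 higher and 5 lower, and quantile normalization 0 and 6. Among primitive endoderm markers, another Pdgfra-positive lineage, Sox17 and Ttr were at 0 in all libraries, which allows up to 0.155 CPM, Gata4 reached at most 0.299 CPM in any library, and Gata6 went from 7.78 to 3.93 CPM. The list counted 2 higher and 4 lower of 6 tested in D8 against D2. Early mesoderm markers counted 2 higher and 1 lower of 3 tested (of 8) in D8 against D2, and 1 and 1 under quantile normalization. Among them Hand2, a factor of heart and limb, rose from 5.85 to 14.8 CPM (1.21, adjusted p = 1.3e-07, limma). Tbx6, a factor of paraxial mesoderm, rose by 0.78 (adjusted p = 4.4e-04, limma) at low levels. It was at 0.298 and 0.448 CPM in the D2 libraries and at 1.60 and 1.13 CPM in the D8 libraries. T, Mixl1 and Mesp1 reached at most 0.0999 CPM in any library, and the oligodendrocyte precursor marker Olig2 was at 0 in all libraries. Epithelial markers summed to between 14.1 and 16.3 CPM in D2 and between 176 and 185 CPM in D8, with 7 higher and 1 lower of 8 tested (of 13). Krt8 went from 2.40 to 125 CPM and Cdh1 from 5.07 to 36.6 CPM, of a mean D8 sum of 180 CPM. The untested Krt18, Epcam and Cldn7 reached at most 0.515, 0.974 and 0.721 CPM in any library. Pdgfa, Pdgfc and Pdgfd fell over the same days, and whether epithelial change was part of that was not tested.

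**Figure D5:**
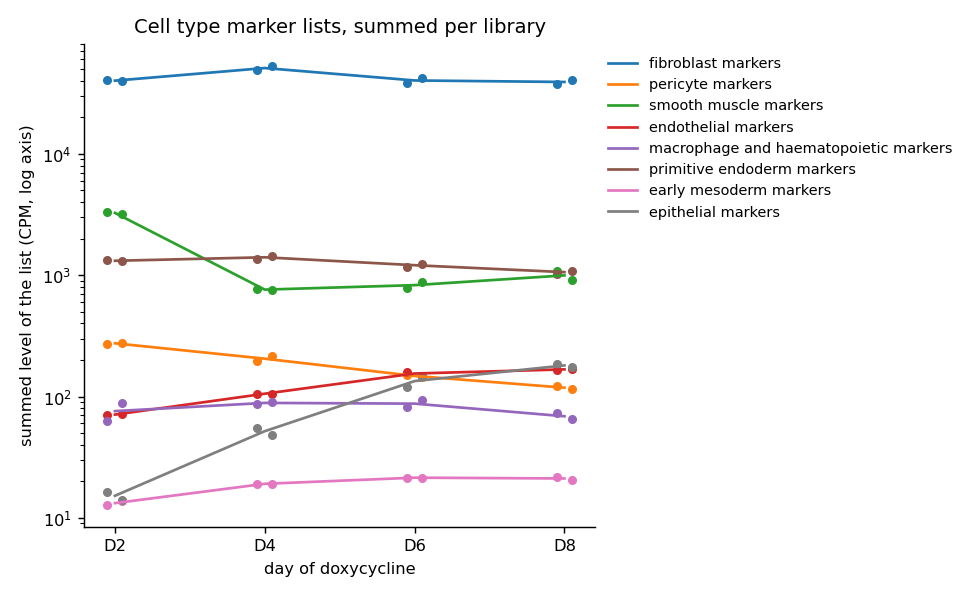
Summed level of each cell type marker list in CPM (vertical axis, logarithmic) by day of doxycycline; points are libraries and lines join day means. Fibroblast markers stay between 37382 and 53082 CPM, smooth muscle markers are lower after D2, pericyte markers reach 115 to 121 CPM in D8 and epithelial markers 176 to 185 CPM.

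Annotated genes on the other strand share exon bases with Pdgfra (Gm42802, 456 bases, and Gm42803, 166 bases), Pdgfa (6330403L08Rik, 813 bases) and Pdgfc (Gm16000, 147 bases). These were not analysed here, and the strand setting of the counting is not given in the sources used here, so their reads and those of the PDGF genes cannot be told apart. Mir7025, within a Pdgfra exon on the same strand, reached at most 0.461 CPM, and Ddi1, within a Pdgfd intron, at most 0.273 CPM.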

How the data were processed

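RNA-seq of 8 MEF libraries, 2 for each of 4 days, was analysed from the table of gene values that the authors deposited. Per the submitters' processing notes, reads were trimmed with Trimmomatic 0.39, counted with featureCounts, and placed on build mm10. Not given in the sources used here are the aligner, the annotation release, the strand setting and how multi-mapping reads were treated. The deposited values are CPM, although named TPM, and each library's column sums to 1000000. Within a library, 53.0% to 54.5% of positive values came out as whole reads (to 0.02 hundredths of 1 read), so reads were partly shared between genes and no count test was run. All columns belong to a labelled library, and 0 do not.

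Symbols, lengths and coordinates came from GENCODE M21 (32029 of 32108 identifiers, 79 without a symbol), and promoters from RefSeq, which held windows for Pdgfra, Pdgfa, Pdgfc and Pdgfd. The windows of Pdgfa overlap its own exons and are not printed. A gene reaching 1 CPM in 2 or more libraries was tested on log2(CPM + 1), a scale that understates the fold of low genes, with limma 3.58.1 in R 4.3.3 (lmFit, eBayes with trend), one mean per day, two-sided, over all 8 libraries. Benjamini-Hochberg adjustment ran over the full set of 15358 tested genes. Folds are ratios of mean CPM, and errors are SD over 2 libraries unless given as SE. The ratios used an exact permutation test of the F statistic of the log2 ratio. The steps between neighbouring days share the libraries of the day between them. The fit was tested on simulated data. Python 3.11.15 with pandas 2.3.3 and matplotlib 3.10.9 made the summaries.

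The 6 genes and all lists were chosen with earlier results of these data known. Beyond the 6 genes, the text names up to 4 called members of each list with the largest change in D8 against D2 and up to 2 in D4 against D2, the 3 genes most alike to each PDGF gene, marker genes under the filter and neighbours of Pdgfra; not all are printed, and 1 of the transducer genes is not reported here. Furin, Fn1, Vim, S100a4, Thy1, Twist2, Notch3, Csf1r, Chic2 and the Y-linked genes with Xist were named after their values were seen. Alternatives were a pseudocount of 0.1, no filter and a filter at 5 CPM, median-of-ratios scaling, quantile normalization, no variance trend, a replicate block, a fit of the compared days alone, and leaving out each library.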

Additional observations from a re-analysis of the deposited data

How the results depend on the processing

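Under the alternatives 651 recomputed results stayed the same, 13 lost a call, 8 gained one, 5 reversed and 8 counts moved by over 1.5 times. Staying the same meant an equal direction and side of the threshold, or, for a count of called genes, a move of at most 1.5 times. Counts and results over any day have no direction and could not reverse. Genes called from D6 to D8 numbered 1399, 344 with no filter, 533 without the variance trend, and 398 to 1743 when a library was left out. Pdgfra from D6 to D8 stayed at 0.31 but lost its call with no filter (adjusted p = 0.147, limma) and without the trend (0.103), and ranged from 0.21 to 0.41 without a library. Its D4 to D6 difference reversed to -0.021 under median-of-ratios scaling and ranged from -0.014 to 0.13 without a library. Pdgfb from D2 to D8 lost its call with no filter (0.50, adjusted p = 0.0502) and under quantile normalization (0.093, adjusted p = 0.573). Pdgfb from D2 to D4 gained one under median-of-ratios scaling (-0.36), quantile normalization (-0.50) and in the fit of those days alone (-0.26), and ranged from -0.27 to -0.25 without a library, where the adjusted p was 0.0319 to 0.238. Its D6 to D8 difference ranged from -0.41 to 0.11, the last without D6 replicate 2, and its D4 to D6 rise from 0.65 to 1.17. Pdgfd from D4 to D8 gained a call under median-of-ratios scaling (-0.18) and quantile normalization (-0.16), and from D4 to D6 lost it in the fit of those days alone (-0.19) and ranged from -0.22 to -0.16 without a library. Pdgfrb from D6 to D8 reversed to 0.00381 under quantile normalization and ranged from -0.042 to 0.025 without a library. The Pdgfa to Pdgfc ratio ranged from 0.24 to 0.38 without a library, and passed the exact test without D8 replicate 2 (p = 0.0381). The cause of these differences was not tested.

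Whether the replicate numbers pair the libraries cannot be told from these values. Deviations of same-numbered libraries from their day mean had correlations of -0.102 to 0.207 over 6 pairs of days. Without a replicate block the calls numbered 10807 for D8 against D2, 9606 for D4 against D2 and 7523 for D8 against D4. They numbered 5792 for D6 against D4, 1399 for D8 against D6 and 12342 over any day. With the replicate block the calls numbered 10929 for D8 against D2, 9753 for D4 against D2, 7744 for D8 against D4, 6046 for D6 against D4, 1593 for D8 against D6 and 12457 over any day, and no PDGF gene changed its call.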
